A study of Mus musculus with 8 samples.

Results

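Expression of 8 potassium channel genes was followed in mouse hearts with and without pressure overload, in wild-type mice and in mice transgenic for the fatty acid desaturase fat-1. The genes were Kcnj2, Kcnj3, Kcnj11, Kcnq1, Kcnh2, Kcnd2, Kcnip2 and Kcna5, chosen as a list of named cardiac potassium channel subunits and found by symbol among the 25929 genes of the table. All 8 were found, and all 8 passed the filter for testing, which kept the 14442 genes that reached 1 FPKM in 2 or more libraries. FPKM is the number of sequenced fragments of a gene scaled to the gene's length and to the depth of the library.

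Surgery and genotype formed 4 groups of 2 libraries each, namely sham-operated hearts of wild-type mice (WT-Sham) and of fat-1 mice (Fat1-Sham), and constricted hearts of wild-type mice (WT-TAC) and of fat-1 mice (Fat1-TAC). A library is named by its group followed by its number, so that WT-TAC1 is the first of the WT-TAC libraries. WT mice were C57BL/6, and the fat-1 mice were their littermates carrying the n-3 fatty acid desaturase of Caenorhabditis elegans, an enzyme that makes n-3 from n-6 polyunsaturated fatty acids. All were 3 months old at surgery. Transverse aortic constriction (TAC) narrows the aorta with a suture so that the left ventricle pumps against a raised pressure, and the sham mice had the chest opened without the constriction. The paper describes the constriction as lasting for weeks. RNA came from ventricular tissue according to the labels and from the whole heart according to the methods, and the promoter of the transgene is not given in the sources used here. The table lists mouse genes, so the transgene's own mRNA was not analysed here. The labels call the samples of a group independent but do not say whether each is 1 mouse, so the p-values measure the spread between these libraries.

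Potassium currents end the cardiac action potential and hold the resting potential of the myocyte. Inward rectifiers pass current near the resting potential (Kcnj2, the pore of the background current), on muscarinic stimulation (Kcnj3, mainly in atria and the nodes) or when ATP falls (Kcnj11, the pore of the ATP-sensitive channel). Voltage-gated channels repolarize the cell: Kcnd2 carries the fast transient outward current of rodent ventricle with its cytosolic partner Kcnip2, Kcna5 an ultrarapid current, and Kcnh2 and Kcnq1 the rapid and the slow delayed rectifier. In failing hearts, loss of the transient outward current is a textbook feature of electrical remodeling.

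The libraries did not all hold the same tissue. In WT-TAC1 the summed FPKM of 8 ventricular cardiomyocyte markers was 25173, against 46060 to 61220 in the other 7 libraries. These 8 were Myl2, Myl3, Myh6, Tnnt2, Tnni3, Actc1, Irx4 and Hey2. Of them, Myh6, Tnnt2, Tnni3 and Actc1 are also expressed in atrial myocytes. The sum, here and below, is thus a measure of cardiomyocyte mRNA and is not specific to the ventricle. That library also held thymocyte mRNAs, with a sum over 5 markers of 891 FPKM against at most 0.537 elsewhere, and skeletal muscle mRNAs, with a sum over 5 markers of 76.9 FPKM against at most 6.01. Airway and lung markers summed to 1501 and 3753 FPKM in the WT-TAC libraries, to 76.8 in Fat1-Sham1, and to at most 0.865 in the other 5 libraries. The 8 atrial cardiomyocyte markers summed to between 1095 and 4046 FPKM in 5 libraries, but to no more than 60.6 in Fat1-Sham2 and the 2 Fat1-TAC libraries. Between replicates, 2560 genes were more than 2-fold apart in WT-TAC and 275 to 362 in the other groups. Library depths were between 14163994 and 21218331 fragments. Each of the 8 genes rested on 280 to 3644 fragments per library, and PCR duplicates are not independent molecules, so any counting error derived from these covers counting alone. In such bulk RNA, fewer cells of a type and less RNA per cell cannot be told apart.

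Of the 8 genes, Kcnj11 had the highest mean level over the 8 libraries at 137 FPKM, followed by Kcnip2 at 107, Kcnh2 at 58.1, Kcnq1 at 36.6, Kcnj3 at 21.2, Kcna5 at 9.77, Kcnj2 at 8.49 and Kcnd2 at 5.08. Within each of the 8 libraries Kcnj11 was the first in this order, Kcnq1 the fourth, Kcnj3 the fifth and Kcnd2 the last. Neighbours in this order overlapped in their ranges over the libraries, as did Kcnj11 (70.0 to 178 FPKM) and Kcnip2 (48.8 to 131). Within libraries the order changed between Kcnip2 and Kcnh2 in WT-TAC1, and between Kcna5 and Kcnj2 in WT-Sham2 and WT-TAC1. This order depends on the gene length behind each FPKM. The values are whole fragments at a length of 858 bases for Kcnq1, 1092 for Kcnj11, 1251 for Kcnip2 and 1894 for Kcnh2, whereas their longest annotated transcripts have 3029, 3142, 3114 and 4221 bases. For Kcnj2, Kcnd2 and Kcna5, each annotated with 1 transcript, the length was that transcript's. Per base of all annotated exons, Kcnj11 had 40.7 FPKM, Kcnip2 38.5, Kcnh2 22.7, Kcnj3 14.8, Kcna5 9.77, Kcnj2 8.49, Kcnq1 7.68 and Kcnd2 5.08, so that Kcnq1 moved from rank 4 to rank 7.

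The genes lie on 6 chromosomes (GRCm38, GENCODE M21). Kcnd2 spans chr6:21215503-21729805 on the plus strand and Kcna5, whose exon bases fill its whole span, lies at chr6:126532551-126535412 on the minus strand. Kcnj11 lies at chr7:46093953-46100764 on the minus strand and Kcnq1 at chr7:143106362-143427042 on the plus strand. The others are Kcnj2 at chr11:111066164-111076821 (plus), Kcnj3 at chr2:55435970-55598145 (plus), Kcnh2 at chr5:24319589-24351604 (minus) and Kcnip2 at chr19:45791839-45816061 (minus). The lincRNA Gm26794 runs antisense to Kcnj3 and shares 1621 exon bases with it, 31.1% of the exon bases of Kcnj3. It was listed at 0.0593 to 0.230 FPKM. The antisense RNA Kcnq1ot1 shares 121 exon bases, 2.96%, with Kcnq1 and was listed at 0.0251 to 0.213 FPKM. The library kit is not stated to keep the strand, so reads of Kcnj3 and Kcnq1 cannot be told apart from those of their antisense partners over the shared bases.

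Promoter sequence was found in RefSeq (GRCm38.p6) for 6 of the 8 genes, and is shown for Kcnd2, Kcnip2 and Kcnj3. Kcnd2 and Kcnip2 encode the 2 partners of 1 channel but had different orders over the libraries, a difference that was not tested. The level of Kcnj3 followed atrial mRNAs. These 3 were picked after the values were seen. Each sequence is the 250 bases before the RefSeq gene start, 5′ to 3′ on the strand of the gene, with the GC box GGGCGG in capitals where it lies on that strand. The windows are chr6:21215096-21215345 (plus) for Kcnd2, chr19:45816064-45816313 (minus) for Kcnip2 and chr2:55435720-55435969 (plus) for Kcnj3.
Kcnd2: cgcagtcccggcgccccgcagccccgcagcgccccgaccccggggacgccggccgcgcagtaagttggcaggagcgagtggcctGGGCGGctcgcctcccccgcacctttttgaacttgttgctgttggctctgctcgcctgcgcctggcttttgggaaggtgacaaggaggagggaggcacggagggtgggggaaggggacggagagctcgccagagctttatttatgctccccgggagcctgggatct
Kcnip2: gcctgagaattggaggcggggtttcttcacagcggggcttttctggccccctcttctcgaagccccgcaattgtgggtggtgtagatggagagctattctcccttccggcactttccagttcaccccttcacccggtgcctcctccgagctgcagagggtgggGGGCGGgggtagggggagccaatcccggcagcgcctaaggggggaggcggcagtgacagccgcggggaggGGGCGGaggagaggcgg
Kcnj3: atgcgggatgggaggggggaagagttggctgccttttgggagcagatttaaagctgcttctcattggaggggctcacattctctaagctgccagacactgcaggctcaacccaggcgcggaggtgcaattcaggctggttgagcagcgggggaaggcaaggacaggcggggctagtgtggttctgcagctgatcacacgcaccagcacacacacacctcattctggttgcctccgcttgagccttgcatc
The GC box was found 1 time in the Kcnd2 window, 2 times in the Kcnip2 window and 0 times in the Kcnj3 window, counting both strands, and 32.7% of 32851 promoter windows of the same length hold it. The GC content of the windows was 68.8%, 66.8% and 58.4%. The 3 windows held 0 of 4 other motifs searched on both strands. ACANNTGT, bound by Iroquois factors, occurs in 6.31% of promoter windows, and GATAAG, known from zinc finger factors of heart development, occurs in 6.55%. The hexamer CACGTG, read by many helix-loop-helix factors, occurs in 6.02%, and the core promoter element TATAAA occurs in 12.4%. A match is a description of the letters and not a binding site.

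None of the 8 genes was called in any of 7 comparisons. Genes were compared with limma on log2(FPKM + 1), and called at the study's cutoffs of a Benjamini-Hochberg adjusted p under 0.1 with a fold change over 1.5 or under 1/1.5. The same rule called 0.935% of all genes tested in WT-TAC against WT-Sham, 0.00692% in Fat1-TAC against Fat1-Sham, 0% in Fat1-Sham against WT-Sham, 1.43% in Fat1-TAC against WT-TAC, 0.0692% for the interaction of genotype and surgery, 0% for TAC against sham averaged over both genotypes and 0.0415% for fat-1 against WT averaged over both surgeries. At an unadjusted p under 0.05, limma found 0 of the 8 genes in the first 3 comparisons and in the interaction, where 27.5%, 2.58%, 1.25% and 7.26% of all genes passed. It found Kcnj3 and Kcnip2 in Fat1-TAC against WT-TAC (29.4% of all genes) and in the averaged fat-1 comparison (14.9%), and Kcnd2 in the averaged TAC comparison (15.8%). For the pairwise comparisons, the smallest two-sided p that exact permutation of 2 against 2 libraries allows is 0.333. That bound does not apply to the interaction or the averaged comparisons, which use all 8 libraries. All of these limma p-values rest on the spread that limma shares across genes and groups.

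**Figure D1:**
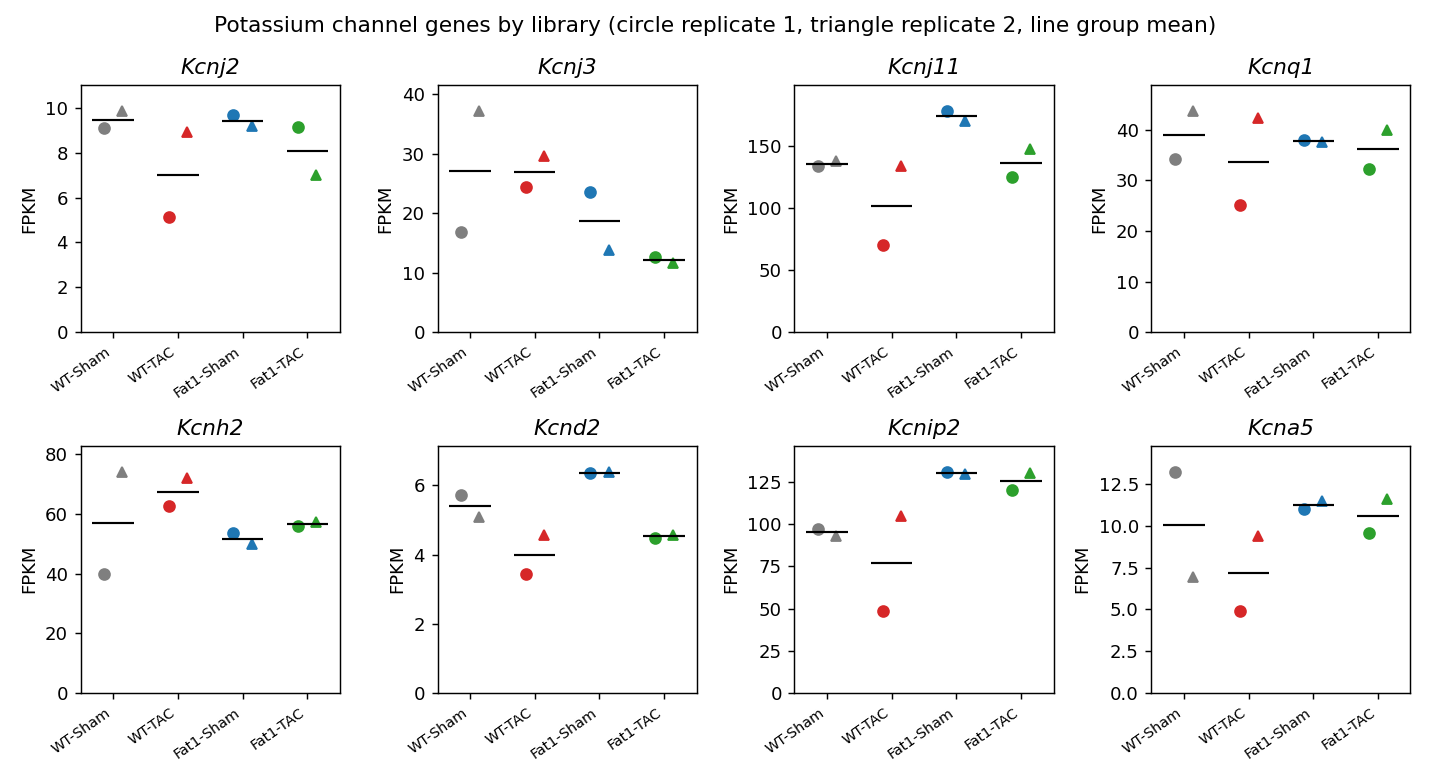
FPKM of each of the 8 potassium channel genes in each library, with 1 panel per gene, the 4 groups on the x axis, circles for replicate 1, triangles for replicate 2 and a line at the group mean. WT-TAC1 is the lowest library for Kcnj2, Kcnj11, Kcnq1, Kcnd2, Kcnip2 and Kcna5, and the 4 fat-1 libraries lie above the 4 WT libraries for Kcnip2.

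Kcnd2, the pore-forming alpha subunit of the fast transient outward current, was lower in each TAC library than in each sham library. Its level was 5.71 and 5.10 FPKM in WT-Sham, 3.44 and 4.56 in WT-TAC, 6.35 and 6.38 in Fat1-Sham, and 4.49 and 4.58 in Fat1-TAC. The 4 TAC libraries thus lay between 3.44 and 4.58 FPKM and the 4 sham libraries between 5.10 and 6.38, without overlap. Of all genes tested, 1.45% had all 4 TAC libraries below all 4 sham libraries, and Kcnd2 was the only one of the 8. The averaged log2 fold change was -0.39 with a standard error (SE) of 0.15, an unadjusted p of 0.0319 and an adjusted p of 0.301 in limma, and the fold change of 0.764 did not reach the cutoff. Within genotypes it was -0.37 (SE 0.21) in WT hearts and -0.41 (SE 0.21) in fat-1 hearts, and the interaction was -0.05 with a 95% interval of -0.74 to 0.64. In fat-1 hearts the summed ventricular markers were 54093 and 55651 FPKM after TAC, between the 52648 and 61220 of the sham libraries. What cardiomyocyte content contributed to the Kcnd2 values was not tested. Divided by the level of ventricular cardiomyocyte markers, Kcnd2 was at 5.22 and 4.85 in WT-Sham. It was then higher in WT-TAC1, at 6.61, and still lower in WT-TAC2, at 4.80. The fat-1 values were 5.85 and 5.05 in sham against 4.02 and 3.98 after TAC.

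Kcnip2, the cytosolic KChIP2 subunit that Kcnd channels need to reach the membrane in full number, had its 4 highest libraries in fat-1 hearts. Its level was 97.3 and 93.3 FPKM in WT-Sham, 48.8 and 105 in WT-TAC, 131 and 129.8 in Fat1-Sham, and 120.5 and 130.5 in Fat1-TAC. The 4 fat-1 libraries, at 120.5 to 131 FPKM, lay above the 4 WT libraries, at 48.8 to 105. Of all genes tested, 0.983% had all 4 fat-1 libraries above all 4 WT libraries, and Kcnip2 was the only one of the 8. The averaged log2 fold change was 0.62 (SE 0.22), with an unadjusted p of 0.0254 and an adjusted p of 0.298 in limma. In sham hearts the log2 fold change was 0.45 with a 95% interval of -0.29 to 1.19, and in TAC hearts it was 0.80 with an interval of 0.06 to 1.54 and an adjusted p of 0.166. Without WT-TAC1 the second value was 0.26. Divided by the level of ventricular cardiomyocyte markers, Kcnip2 was at 88.9 in both WT-Sham libraries, 93.9 and 110.1 in WT-TAC, 120.4 and 103 in Fat1-Sham, and 108 and 114 in Fat1-TAC, so that WT-TAC2 overlapped with the fat-1 libraries. After TAC, Kcnip2 differed from sham by a log2 fold change of -0.41 (SE 0.31) in WT hearts, and of -0.06 (SE 0.31) in fat-1 hearts.

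The ratio of Kcnip2 to Kcnd2 varied between libraries. It was 17.0 and 18.3 in WT-Sham, 14.2 and 23.0 in WT-TAC, 20.6 and 20.3 in Fat1-Sham, and 26.8 and 28.5 in Fat1-TAC, on the deposited length scale. Both Fat1-TAC libraries had higher ratios than the other 6 libraries. This ratio was formed after the values were seen and was not tested. Kcnd3, the other alpha subunit of the fast transient outward current, had 3.74 to 7.31 FPKM, with a log2 fold change of -0.39 (SE 0.25) after TAC in WT and of -0.02 (SE 0.25) in fat-1 hearts. Kcna4, the alpha subunit of the slow transient outward current, stayed under the filter, with 0.305 to 1.06 FPKM.

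Kcnj3, the Kir3.1 subunit of the acetylcholine-activated channel, had its lowest values in the 3 fat-1 libraries in which atrial mRNAs were nearly absent. Its level was 16.9 and 37.1 FPKM in WT-Sham, 24.3 and 29.5 in WT-TAC, 23.6 and 13.7 in Fat1-Sham, and 12.6 and 11.6 in Fat1-TAC. Fat1-Sham2 and both Fat1-TAC libraries were lowest, at 11.6 to 13.7 FPKM, and the 5 others had 16.9 to 37.1. The same 3 libraries were lowest in summed markers of the sinus node and conduction system, at 14.7 to 18.3 against 23.2 to 34.7 FPKM. They were also lowest in summed fibroblast markers, at 528 to 559 against 576 to 974 FPKM. What each of these contributed to Kcnj3 was not tested. In Fat1-Sham1, the fat-1 library with atrial markers at 1430 FPKM, Kcnj3 lay inside the range of the 4 WT libraries. Against WT-TAC, the log2 fold change in Fat1-TAC was -1.08 (SE 0.38), with an unadjusted p of 0.0248 and an adjusted p of 0.163 in limma. Averaged over both surgeries the log2 fold change of fat-1 against WT was -0.77 (SE 0.27, adjusted p = 0.296), and the interaction was -0.63 with a 95% interval of -1.91 to 0.65. Because each fat-1 TAC library was low in atrial mRNAs and each WT-TAC library was not, genotype and atrial content cannot be told apart in TAC hearts.

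Kcnj5, the Kir3.4 partner of Kcnj3, was also lowest in those 3 libraries. It was at 19.6 to 22.0 FPKM in the 3 libraries low in atrial mRNAs and at 22.5 to 38.5 in the 5 others. The summed atrial markers were at 1095 and 4046 FPKM in WT-Sham, 2613 and 2618 in WT-TAC, 1430 and 35.8 in Fat1-Sham, and 60.6 and 44.5 in Fat1-TAC. The defining atrial markers Myl7 and Sln, an atrial myosin light chain and sarcolipin, were at 9.62 to 18.3 and 1.13 to 3.86 FPKM in those 3 libraries and at 456 to 1945 and 126 to 408 in the 5 others. Of the 8 markers 7 lay lower in each of the 3 libraries than in each of the others, and the exception was Bmp10, at 0.0735 FPKM in WT-Sham2. The ratio of Kcnj3 to Kcnj5 was 0.549 to 0.644 in the 3 libraries and 0.752 to 1.07 in the others. Kcna5, which is linked to the atrial ultrarapid current in humans, did not share this order, with 9.58 to 11.6 FPKM in the 3 libraries and 4.93 to 13.2 in the 5 others. The grouping of libraries by atrial mRNA was made after the values were seen, so no test was run on it.

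**Figure D2:**
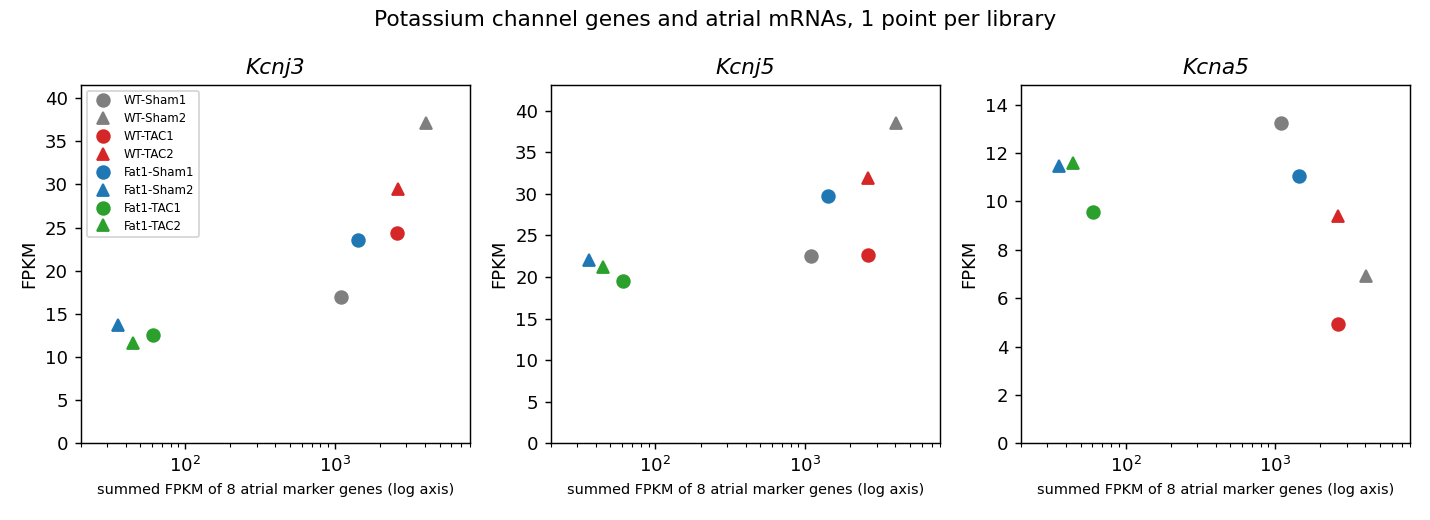
FPKM of Kcnj3, Kcnj5 and Kcna5 (y axes) against the summed FPKM of 8 atrial marker genes (x axis, log scale), with 1 point per library coloured by group. The 3 fat-1 libraries at 35.8 to 60.6 FPKM of atrial markers have the lowest Kcnj3 and Kcnj5, whereas Kcna5 does not follow that order.

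Kcnj11, the Kir6.2 pore of the ATP-sensitive channel, was highest in Fat1-Sham and lowest in WT-TAC1. Its level was 134 and 138 FPKM in WT-Sham, 70.0 and 134 in WT-TAC, 178 and 171 in Fat1-Sham, and 125 and 148 in Fat1-TAC. Both Fat1-Sham libraries lay above the other 6, and the share of all genes with that order was not counted. Divided by the level of ventricular cardiomyocyte markers, Kcnj11 was at 163.8 and 135.0 in Fat1-Sham and at 134.7 and 140.7 in WT-TAC. On that scale Fat1-Sham and WT-TAC overlapped. The log2 fold change after TAC was -0.48 (SE 0.28) in WT and -0.36 (SE 0.28) in fat-1 hearts, and the averaged log2 fold change of -0.42 (SE 0.20) had an unadjusted p of 0.0712 and an adjusted p of 0.328 in limma. The averaged fat-1 comparison gave 0.42 (SE 0.20, adjusted p = 0.351). Abcc9, the SUR2 subunit of cardiac and vascular channels, had 27.8 FPKM in WT-TAC1 and 52.1 to 67.2 in the others, and the ratio of Kcnj11 to Abcc9 stayed between 2.19 and 2.82. Abcc8, the SUR1 subunit, had 17.8 to 31.01 FPKM, and Kcnj8, the Kir6.1 pore of vascular cells, 11.95 to 21.4. Kcnj8 differed from WT by an averaged log2 fold change of 0.35 in fat-1 hearts (SE 0.15, unadjusted p = 0.0501, adjusted p = 0.336).

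Kcnj2, the Kir2.1 pore of the background inward rectifier, was close to the same level in most libraries. Its level was 9.09 and 9.83 FPKM in WT-Sham, 5.15 and 8.90 in WT-TAC, 9.68 and 9.18 in Fat1-Sham, and 9.12 and 6.98 in Fat1-TAC. WT-TAC1 and Fat1-TAC2 were the lowest libraries, and TAC and sham overlapped. The log2 fold change after TAC was -0.42 (SE 0.27, adjusted p = 0.280) in WT and -0.21 (SE 0.27) in fat-1 hearts. In sham hearts fat-1 differed from WT by -0.004 with a 95% interval of -0.63 to 0.62. Kcnj12, the Kir2.2 subunit of the same current, had 5.75 to 10.8 FPKM and a ratio to Kcnj2 of 0.849 to 1.34.

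Kcnq1, the alpha subunit of the slow delayed rectifier, had 34.3 and 43.6 FPKM in WT-Sham, 25.2 and 42.2 in WT-TAC, 37.95 and 37.6 in Fat1-Sham, and 32.3 and 39.9 in Fat1-TAC. The groups overlapped, and the log2 fold change after TAC was -0.24 (SE 0.26) in WT and -0.07 (SE 0.26) in fat-1 hearts. The averaged fat-1 comparison gave 0.05 with a 95% interval of -0.38 to 0.48. Kcne1, the small accessory subunit that slows the gating of Kcnq1, was low, with 2.26 and 1.76 FPKM in WT-Sham, 0.537 and 1.25 in WT-TAC, 1.62 and 2.18 in Fat1-Sham, and 1.48 and 2.52 in Fat1-TAC. Both WT-TAC libraries lay below the other 6, and the share of all genes with that order was not counted. Divided by the level of ventricular cardiomyocyte markers, Kcne1 was at 1.03 and 1.31 in WT-TAC, narrowly below the 1.33 of Fat1-TAC1. For Kcne1 the log2 fold change between WT groups was -0.69 (SE 0.30), with an unadjusted p of 0.0522 and an adjusted p of 0.181 in limma.

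Kcnh2, the alpha subunit of the rapid delayed rectifier, had WT-Sham replicates far apart. Its level was 39.7 and 74.0 FPKM in WT-Sham, 62.6 and 71.99 in WT-TAC, 53.6 and 49.7 in Fat1-Sham, and 56.0 and 57.3 in Fat1-TAC. WT-Sham held both the lowest and the highest library, so the other groups lay inside its range. The log2 fold change after TAC was 0.30 (SE 0.27, adjusted p = 0.428) in WT hearts, and -0.12 when libraries were scaled by the median of ratios. It was 0.13 (SE 0.27) in fat-1 hearts. In WT-TAC1 it was at 110% of the WT-Sham mean, above that of the other 7 genes.

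Kcna5, the Kv1.5 subunit of the ultrarapid current, had 13.2 and 6.93 FPKM in WT-Sham, 4.93 and 9.38 in WT-TAC, 11.04 and 11.5 in Fat1-Sham, and 9.58 and 11.6 in Fat1-TAC. The WT replicates were far apart in both groups, and the 4 fat-1 libraries lay inside the WT-Sham range. The log2 fold change after TAC was -0.44 (SE 0.36) in WT and -0.09 (SE 0.36) in fat-1 hearts, and the averaged fat-1 comparison gave 0.38 (SE 0.25, adjusted p = 0.390).

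**Figure D3:**
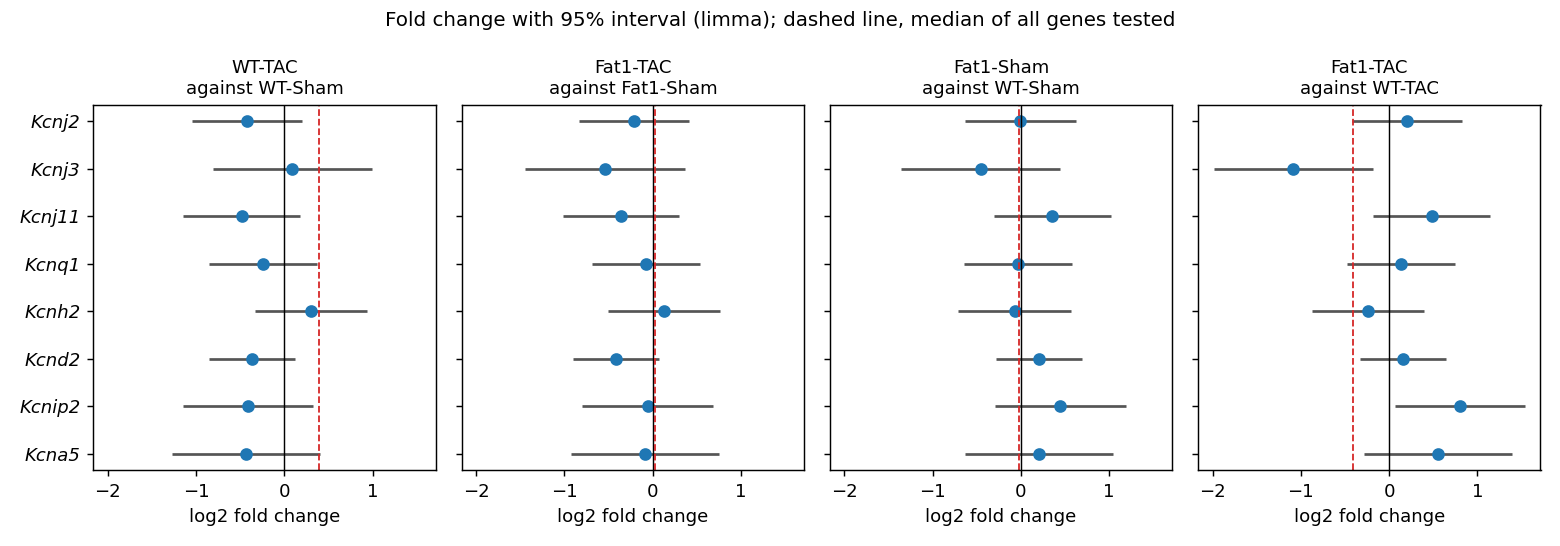
Log2 fold change on the log2(FPKM + 1) scale (x axis) of each of the 8 genes (y axis) in the 4 pairwise comparisons, with points at the limma estimate, bars for the 95% interval and a dashed line at the median of all genes tested. The intervals cover 0 except those of Kcnj3 and Kcnip2 in Fat1-TAC against WT-TAC.

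In WT hearts, WT-TAC1 was lower than WT-TAC2 for 6 of the 8 genes by a wide margin. In WT-TAC1, Kcnj2, Kcnj11, Kcnq1, Kcnd2, Kcnip2 and Kcna5 were at 49.0% to 64.6% of their WT-Sham mean, and in WT-TAC2 at 84.4% to 109.9%. The 8 ventricular cardiomyocyte markers moved alongside, at 42.5% to 69.5% in WT-TAC1 and 80.1% to 116% in WT-TAC2. Kcnj3, at 90.1%, and Kcnh2, at 110%, were the exceptions in WT-TAC1. When libraries were divided by the level of these markers, the 6 genes had positive log2 fold changes after TAC in WT hearts, from 0.098 for Kcna5 to 0.35 for Kcnq1. The 8 genes had a median log2 fold change from WT-Sham to WT-TAC of -0.39, with 2 higher and 6 lower, beside 0.39 for all genes tested, and in Fat1-TAC against WT-TAC, which shares the WT-TAC libraries, it was 0.18 beside -0.40. Scaling by the median of ratios moved the median of all genes in WT-TAC against WT-Sham to 0.03, and the estimates of all 8 genes were then negative, with Kcnj3 at -0.32. With WT-TAC1 left out, 0 of the 8 genes were called in WT-TAC against WT-Sham and the log2 fold changes were -0.20 for Kcnd2, -0.08 for Kcnj2, -0.03 for Kcna5, -0.02 for Kcnj11, 0.12 for Kcnq1 and 0.13 for Kcnip2, so that Kcnd2 kept more of its lower estimate than the other 5. With WT-TAC2 left out, so that WT-TAC1 stood alone for its group and was assumed to vary like the others, 5 of the 8 were called and all 5 were lower, with Kcnj11 at -0.95, Kcnip2 at -0.95, Kcna5 at -0.84, Kcnj2 at -0.77 and Kcnq1 at -0.60. In that fit 51.3% of all genes tested were called, most of them higher, and 6.31% were called lower.

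**Figure D4:**
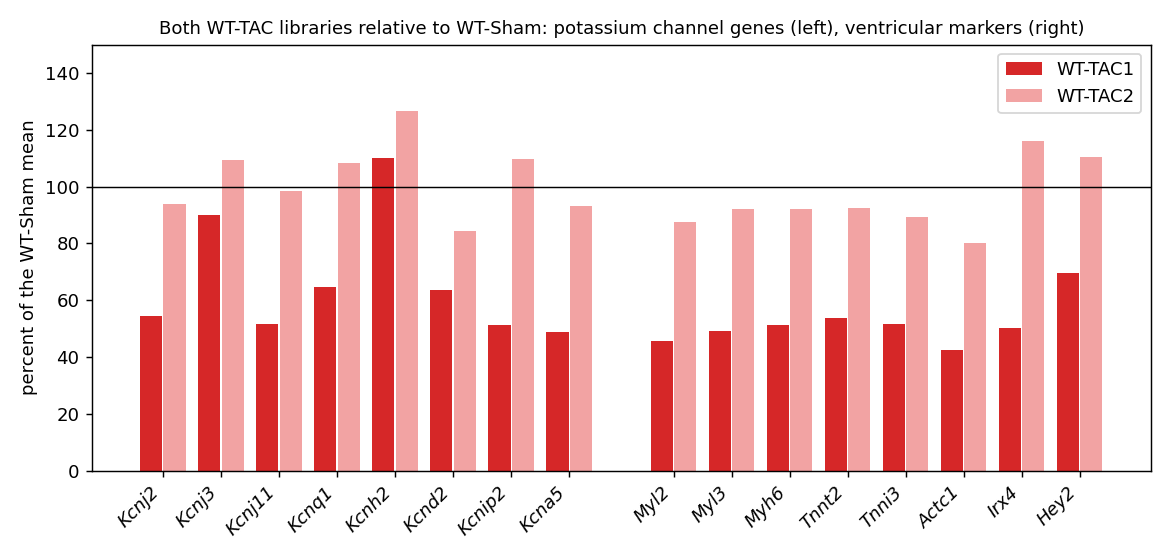
FPKM of the 8 potassium channel genes (left) and of 8 ventricular cardiomyocyte markers (right) in each WT-TAC library, as a percentage of the WT-Sham mean (y axis, from 0), with dark bars for WT-TAC1 and light bars for WT-TAC2. Most genes of both sets are at 42.5% to 69.5% in WT-TAC1, except Kcnj3 at 90.1% and Kcnh2 at 110%.

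In fat-1 hearts, 7 of the 8 genes had a lower estimate after TAC and Kcnh2 a higher one. The median log2 fold change was -0.15, beside 0.02 for all genes, and the adjusted p was 1 for each of the 8 in limma. In sham hearts 4 of the 8 were higher and 4 lower in fat-1, with a median of 0.10 beside -0.01 for all genes. The interaction estimates lay between -0.63 (Kcnj3) and 0.35 (Kcnip2), with adjusted p-values of 0.543 to 0.933, and their 95% intervals all covered 0. Of the 4 markers of hypertrophy listed, Myh7, the fetal myosin heavy chain, was at 28.9 and 47.3 FPKM in WT-Sham, 50.7 and 89.0 in WT-TAC, 31.1 and 30.5 in Fat1-Sham, and 76.0 and 119.6 in Fat1-TAC. Its TAC libraries lay above its sham libraries, narrowly so for WT-TAC1 (50.7) over WT-Sham2 (47.3). The share of all genes with that order was not counted. The ranges of the TAC and sham libraries overlapped for the others, the natriuretic peptide gene Nppb (178 to 264 FPKM after TAC and 175 to 418 in sham), the skeletal actin gene Acta1 (138 to 421 and 109 to 326) and Ankrd1 (401 to 606 and 438 to 486).

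Beyond the 8 genes, 70 further potassium channel subunits and regulators were listed by role, of which 40 passed the filter and 0 were called in any of the 7 comparisons. Between WT-TAC and WT-Sham, 8 of these 40 had an unadjusted p under 0.05, and each was higher in WT-TAC. Of all genes tested 27.5% had such a p, and 93.4% of those were higher in WT-TAC, so neither the number nor the direction set these genes apart. The smallest p belonged to Kcne3, an accessory subunit, with 0.223 and 0.396 FPKM in WT-Sham against 1.17 and 1.70 in WT-TAC (log2 fold change 0.89, SE 0.24, adjusted p = 0.175), and to Kcnip3, a calcium-binding relative of Kcnip2, with 0.819 and 1.31 against 3.41 and 2.28 (log2 fold change 0.89, SE 0.27, adjusted p = 0.175). Airway and lung markers summed to 1501 and 3753 FPKM in WT-TAC against at most 0.865 in WT-Sham. Thymocyte markers summed to 891 and 0.537 FPKM in WT-TAC against at most 0.0990 in WT-Sham. What those mRNAs contributed to Kcne3 and Kcnip3 was not tested. Among genes with lower estimates the smallest p belonged to Kcne1 and to Abcc9 (log2 fold change -0.50, SE 0.27, adjusted p = 0.226). By role, the median log2 fold change was -0.12 for inward rectifiers and sulfonylurea receptors (7 tested), -0.28 for voltage-gated alpha subunits (9 tested), 0.51 for auxiliary subunits (9 tested), 0.58 for two-pore channels (4 tested), 0.23 for calcium-activated channels (5 tested) and -0.18 for regulators (6 tested), beside 0.39 for all genes. The calcium-activated Kcnn4, the voltage-gated Kcna3 and the beta subunit Kcnab2, chosen after their values were seen, were at 42.7, 23.3 and 41.2 FPKM in WT-TAC1, the library with thymocyte mRNAs, and at no more than 1.09, 0.355 and 3.90 elsewhere. What the thymocyte mRNAs contributed to these values was not tested.

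**Figure D5:**
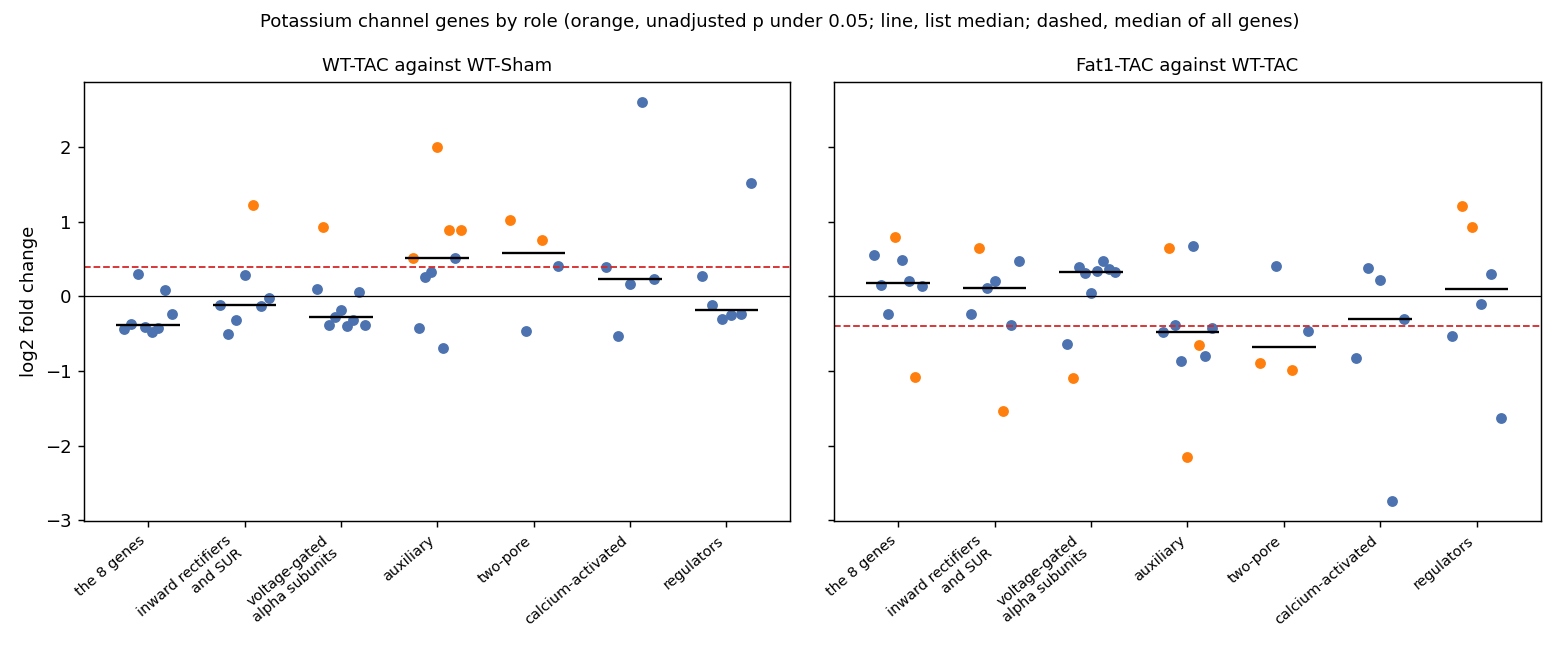
Log2 fold change (y axis) of the 8 genes and of the 40 other tested genes by role (x axis), for both comparisons that use the WT-TAC libraries, with WT-Sham (left panel) and with Fat1-TAC (right panel). Orange points have an unadjusted p under 0.05, lines are list medians, and the dashed line is the median of all genes tested, at 0.39 and -0.40.

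A pair of Iroquois transcription factors were the wider-list genes with the smallest p among those higher in Fat1-TAC. Irx3, which acts in the ventricular conduction system, had 6.43 and 8.78 FPKM in WT-Sham, 4.89 and 9.44 in WT-TAC, 10.1 and 8.74 in Fat1-Sham, and 15.0 and 19.5 in Fat1-TAC. Irx5, known as a repressor of Kcnd2 in the gradient of the transient outward current across the ventricular wall, had 2.26 and 3.09, 1.29 and 2.81, 2.38 and 2.97, and 4.32 and 4.94 FPKM in the same order. Both genes had their 2 highest libraries in Fat1-TAC, and the share of all genes with that order was not counted. Against WT-TAC the log2 fold change was 1.21 for Irx3 (SE 0.31, unadjusted p = 0.00566, adjusted p = 0.143) and 0.93 for Irx5 (SE 0.30, unadjusted p = 0.0163, adjusted p = 0.163), and against Fat1-Sham it was 0.80 (SE 0.31) and 0.62 (SE 0.30), both with an adjusted p of 1. In limma the interaction was 0.92 for both, with adjusted p-values of 0.495. Lower in Fat1-TAC than in WT-TAC with the smallest p were Kcnk5, an acid-sensitive two-pore channel, with 2.79 and 1.54 FPKM in WT-TAC against 0.423 and 0.735 (log2 fold change -0.98, SE 0.27, adjusted p = 0.1503), and Kcna2, a voltage-gated subunit of neurons, with 4.07 and 1.63 against 0.681 and 0.737 (log2 fold change -1.09, SE 0.36, adjusted p = 0.163). Airway and lung markers summed to 1501 and 3753 FPKM in WT-TAC against at most 0.601 in Fat1-TAC. The sums of neuron and glia markers were 14.9 and 20.8 against 5.32 and 4.44 FPKM. Those of thymocyte markers were 891 and 0.537 against 0.346 and 0.119 FPKM. Kcnk5, Kcna2 and the thymocyte sum were higher in WT-TAC1 than in WT-TAC2, whereas the airway and neuron sums were lower. What these mRNAs contributed to Kcnk5 and Kcna2 was not tested. Kcnk5 also had the smallest p of the interaction, at -1.04 (SE 0.38, adjusted p = 0.495), where Dlg1, a scaffold protein that binds potassium channels, was next among lower genes at -0.53 (SE 0.24).

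The remaining comparisons named few further genes. In Fat1-TAC against Fat1-Sham the smallest p among lower genes belonged to Dlg1 (log2 fold change -0.27, SE 0.17) and Klf15, a circadian regulator of Kcnip2 (-0.34, SE 0.25). In sham hearts, Kcng2, a silent voltage-gated subunit, was 0.31 higher (SE 0.27) and Kcnj8 0.22 higher (SE 0.21) in fat-1 on the log2 scale, and Kcnt2 (-0.47, SE 0.29) and Kcnab1 (-0.60, SE 0.38) had negative estimates. The averaged TAC comparison had Kcnip3 (0.66, SE 0.19, adjusted p = 0.267) and Kcne3 (0.56, SE 0.17, adjusted p = 0.276) at the top, and Kcnk3 (-0.36, SE 0.19) and Kcna7 (-0.30, SE 0.17) among the lower. Kcnk3, the two-pore background channel TASK-1, was at 61.9 FPKM in WT-TAC1 and at 106 to 135 in the other libraries. The averaged fat-1 comparison had Irx3 (0.75, SE 0.22, adjusted p = 0.257) and Kcnj8 as higher and Kcnab1 (-0.73, SE 0.27, adjusted p = 0.306) and Kcnk5 (-0.46, SE 0.19, adjusted p = 0.328) as lower.

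The genes whose log2(FPKM + 1) was most like each of the 8 over the 8 libraries were named by Pearson's r, as a description over 8 points that share the groups and the libraries that stand apart. For Kcnd2 they were Ybx3 and Akap1 (r = 0.99 for both), for Kcnip2 Limch1 and Golga4 (0.99 for both), for Kcnj11 Ogdh and Fam210a (0.99 for both), and for Kcnj3 Gm32849 (0.995) and Rab3b (0.99). For Kcnj2 they were Tek and Pnpla8 (0.97 for both), for Kcnq1 Trabd2b (0.98) and Rbpms2 (0.97), for Kcnh2 Ypel4 and Tgfb2 (0.97 for both), and for Kcna5 Rita1 (0.97). The highest of 14442 correlations over 8 points is high for any gene.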

How the data were processed

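The authors sequenced total heart RNA (NEBNext Ultra RNA kit, Illumina HiSeq) from 8 libraries and deposited 1 table of FPKM values per gene. The submitters' processing notes name HISAT2 and the build mm10 (GRCm38), while the counting program and annotation are not given in the sources used here. No sample column was left unused (0), 77 of 25929 genes had no symbol, and 4 lines without a gene were removed. Each gene's FPKM values were whole fragments, within a tolerance of 0.02, at 1 whole length (the median annotated transcript of GENCODE M21 for 11488 genes and another length for 14441), which gave depths and fragment numbers. Values were tested as log2(FPKM + 1), which understates changes of low genes, with limma 3.58.1 (lmFit, eBayes with a trend) in R 4.3.3, with 4 group means over all 8 libraries. The test was checked on simulated data with genes changed in WT-TAC only and no difference in tissue between replicates. That check cannot cover the spread between the real WT-TAC libraries. Adjusted p-values are Benjamini-Hochberg over all genes tested, and SE is limma's moderated standard error. The members and gene lists were chosen with earlier results of these data known. Named were the 8 genes, partner subunits (Kcnd3, Kcne1, Kcnj5, Kcnj12, Kcnj8, Abcc9, Abcc8, Kcna4 and Kcnk3), per comparison the 2 wider-list genes with the smallest p in each direction, the 2 genes most like each member, and markers set beside a result, and some genes this rule names are not reported here. Other choices made after the values were seen are named as such in the text. The alternatives were 3 scalings (median of ratios, quantile, ventricular cardiomyocyte markers), no filter, a stricter filter (mean FPKM of 5), a smaller pseudocount (0.1), a replicate block, limma-voom on the recovered fragments, a fit of only the groups compared, and leaving out each library.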

Additional observations from a re-analysis of the deposited data

How the results depend on the processing

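Over the 56 log2 fold changes (8 genes in 7 comparisons), removing the filter, raising it to a mean of 5 FPKM, a pseudocount of 0.1, limma-voom on recovered fragments and, for the 32 pairwise values, fitting only the groups compared kept each direction, and 0 of the 8 genes were called. The fit with the replicate number as a block also called 0 of the 8 in each comparison, with a smallest adjusted p of 0.202. Replicate numbers of different groups did not deviate together (r = -0.14 to 0.02 over genes). Whether libraries of the same number were paired is not stated, and these correlations cannot settle it. With 1 library left out the number of the 8 genes called went from 0 to 5 for WT-TAC against WT-Sham, 0 to 3 for Fat1-TAC against WT-TAC, 0 to 2 for the interaction, 0 to 1 for TAC averaged over genotypes and 0 to 2 for fat-1 averaged over surgeries. The values above 0 arose where WT-TAC2 was left out and WT-TAC1 stood for its group, which made 13 of the 56 values calls. In that fit 51.3%, 54.3%, 46.2%, 25.98% and 26.1% of all genes tested were called in these 5 comparisons, in the same order. The number was 0 with any other library left out. All values that changed sign were under the cutoffs in the analysis as reported, and the cause was not tested. Scaling to ventricular cardiomyocyte markers reversed the sign of the log2 fold change for WT-TAC against WT-Sham Kcnj2 (0.11), Kcnj11 (0.12), Kcnq1 (0.35), Kcnd2 (0.14), Kcnip2 (0.19) and Kcna5 (0.10), for Fat1-TAC against WT-TAC Kcnj2 (-0.40), Kcnj11 (-0.20), Kcnq1 (-0.53), Kcnd2 (-0.41) and Kcna5 (-0.051), for the interaction Kcnj2 (-0.28), Kcnj11 (-0.43), Kcnq1 (-0.38), Kcnip2 (-0.20) and Kcna5 (-0.14), for TAC averaged over genotypes Kcnj3 (0.094), Kcnq1 (0.17), Kcnip2 (0.093) and Kcna5 (0.028), for fat-1 averaged over surgeries Kcnj2 (-0.26), Kcnq1 (-0.35) and Kcnd2 (-0.16). Scaling by the median of ratios reversed the sign of the log2 fold change for WT-TAC against WT-Sham Kcnj3 (-0.32) and Kcnh2 (-0.12), for Fat1-Sham against WT-Sham Kcnj2 (0.018), for Fat1-TAC against WT-TAC Kcnh2 (0.18), for the interaction Kcnh2 (0.23) and Kcnd2 (0.26), for TAC averaged over genotypes Kcnh2 (-0.00772), for fat-1 averaged over surgeries Kcnh2 (0.067). Quantile normalization reversed the sign of the log2 fold change for WT-TAC against WT-Sham Kcnj3 (-0.35) and Kcnh2 (-0.00872), for Fat1-TAC against Fat1-Sham Kcnip2 (0.00612), for Fat1-Sham against WT-Sham Kcnj2 (0.016), for Fat1-TAC against WT-TAC Kcnh2 (0.083), for the interaction Kcnh2 (0.16) and Kcnd2 (0.44), for fat-1 averaged over surgeries Kcnh2 (0.00487). Leaving out single libraries gave ranges that crossed 0 for WT-TAC against WT-Sham Kcnj3 (-0.45 to 0.63), Kcnq1 (-0.60 to 0.12), Kcnh2 (-0.14 to 0.74) and Kcnip2 (-0.95 to 0.13), for Fat1-TAC against Fat1-Sham Kcnq1 (-0.22 to 0.078), Kcnip2 (-0.11 to 0.0016) and Kcna5 (-0.21 to 0.039), for Fat1-Sham against WT-Sham Kcnj2 (-0.056 to 0.047), Kcnj3 (-0.9997 to 0.088), Kcnq1 (-0.20 to 0.14), Kcnh2 (-0.51 to 0.37) and Kcna5 (-0.21 to 0.63). Such ranges were, for Fat1-TAC against WT-TAC Kcnj2 (-0.14 to 0.55), Kcnq1 (-0.23 to 0.50) and Kcnd2 (-0.00719 to 0.32), for the interaction Kcnj2 (-0.13 to 0.55), Kcnj11 (-0.34 to 0.59), Kcnq1 (-0.19 to 0.53), Kcnh2 (-0.61 to 0.27), Kcnd2 (-0.21 to 0.12), Kcnip2 (-0.19 to 0.90) and Kcna5 (-0.071 to 0.77), for TAC averaged over genotypes Kcnj3 (-0.50 to 0.048), Kcnq1 (-0.34 to 0.027), Kcnh2 (-0.00294 to 0.44) and Kcnip2 (-0.50 to 0.0396), for fat-1 averaged over surgeries Kcnj2 (-0.071 to 0.27), Kcnq1 (-0.13 to 0.23) and Kcnh2 (-0.38 to 0.0647). Over all genes tested, 135 were called in WT-TAC against WT-Sham as reported, 38 with the median of ratios, 16 with quantile normalization, 161 with cardiomyocyte scaling, 293 without a filter, 9 at a mean of 5 FPKM, 33 with a pseudocount of 0.1, 52 with the replicate block, 6 with limma-voom, 98 with the groups compared alone, and 0 (either WT-Sham library left out) to 7408 (WT-TAC2 left out) with 1 library fewer. For Fat1-TAC against WT-TAC the numbers were 206 as reported and, in the same order, 29, 14, 235, 350, 15, 33, 52, 108 and 41, and 6 (Fat1-TAC1 left out) to 7837 (WT-TAC2 left out).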
